A study of Mus musculus with 12 samples.

Results

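Matrix metalloproteases (MMPs), the secreted ADAMTS proteases and the tissue inhibitors of metalloproteases (TIMPs) were followed by RNA-seq in mouse muscle stem cells (MuSCs). Every gene named Mmp, Timp or Adamts plus a number in the count files was taken, with no use of its values. This gave 46 genes of 55335, of which 23 were Mmp, 19 Adamts and 4 Timp genes. The groups held 3 libraries each. F cells were freshly isolated and went straight into TRIzol during sorting. Uncompressed cultures were taken on day 2 (2d-U) or day 5 (5d-U). In the compressed group (2+3d-C) a PDMS device with pillars was laid on the culture on day 2 and pressed on the cells for 3 more days. Cells of all 4 groups were sorted from the hindlimbs of mice that carry the Pax7-ZsGreen reporter. The cultured cells grew in growth medium on Matrigel/fibronectin-coated plastic. The labels do not say which libraries came from the same animals, so the p-values measure the spread between these libraries.

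MMPs are zinc proteases that cut collagens, laminins and other proteins outside the cell. Most are secreted as inactive precursors, while a few sit in the membrane. ADAMTS proteases are secreted and bind the matrix: one branch cuts the proteoglycans aggrecan and versican, and another trims procollagens so that fibrils can form. TIMPs bind the active site of MMPs, and TIMP3, which stays attached to the matrix, also blocks several ADAMTS and ADAM proteases. In muscle, MuSCs lie under a basal lamina that these enzymes open and rebuild after injury.

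Libraries held 12540745 to 62424851 reads on genes. Pax7, Myf5 and Myod1, which define the myogenic cells sorted here, had reads in all 12 libraries. Levels below are RPKM (reads scaled by exon length and by library size, the latter adjusted by TMM). Within a group they are given in the order of the replicate numbers, which are 1, 4 and 5 for F, 1, 2 and 3 for 2d-U, 1, 2 and 6 for 5d-U, and 4, 5 and 10 for 2+3d-C. A gene was called where edgeR's quasi-likelihood test, fitted to all 12 libraries, gave a Benjamini-Hochberg adjusted p under 0.05 over the 22635 genes tested, and 44 of the 46 genes were among these. Fitted differences are log2 fold changes ± SE. Reads also fell on 2089 autosomal genes of families that are silent in muscle, such as olfactory receptors. Their level was 0.161 and 0.179 RPKM in F replicates 4 and 5, 0.165 in 5d-U replicate 1 and 0.031 in 5d-U replicate 6, but at most 0.00914 in the other libraries. Genes listed as markers of other cell types had reads as well. Their levels are given in CPM, which are reads scaled by the same TMM-adjusted library size but not by exon length. Summed over 10 fibroadipogenic markers, F libraries held 5310 to 32400 CPM, 2d-U 326 to 435, 5d-U 159 to 303 and 2+3d-C 2650 to 4630. Gsn alone averaged 2230 CPM in compressed cells and 13500 in F cells, and Cd34 averaged 214 CPM in 2d-U cells. Dcn and Dpt averaged 260 and 277 CPM in compressed cells, but Pdgfra 2.95 and Pi16 0.671. In F and compressed cells the sum thus rested largely on Gsn, and which cells its reads came from was not tested. For 8 endothelial markers the sums were 1030 to 1670 CPM in F, 11.6 to 17.1 in 2d-U cells, 8.51 to 45.6 in 5d-U cells and 231 to 263 in compressed cells. The part of such cells, or of the spread reads, in the levels below was not tested, and fewer cells of a type cannot be told apart from less RNA per cell.

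Several proteases and inhibitors that were high in F cells and low in 2d-U and 5d-U cells were high again in compressed cells. The 19 Adamts genes together reached 527, 92.5 and 224 RPKM in compressed cells and 380, 822 and 967 in F cells. They summed to 28.2, 16.6 and 24.2 RPKM in 2d-U cells and to 20.9, 15.5 and 12.2 in 5d-U cells. Adamts1 and Adamts4 made up most of the higher sums, whereas Adamts14 was the largest member in every 2d-U library. The Mmp genes summed to 92.2, 70.2 and 80 RPKM in compressed cells, against 166, 460 and 402 in F cells, 16.4, 13.6 and 15.1 in 2d-U cells and 32.2, 23 and 28.6 in 5d-U cells. Timp sums differed less, from 194 to 230 RPKM in 2d-U cells, 282 to 630 in 5d-U cells, 220 to 265 in compressed cells and 209 to 605 in F cells. Within the Timp sum the leading gene changed. Timp1 held 80.5% to 84.1% of it in 2d-U and 71.5% to 88.2% in 5d-U, while Timp2 was the largest with 46.6% to 67.7% in 2+3d-C and 50.2% to 58.9% in F.

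**Figure D1:**
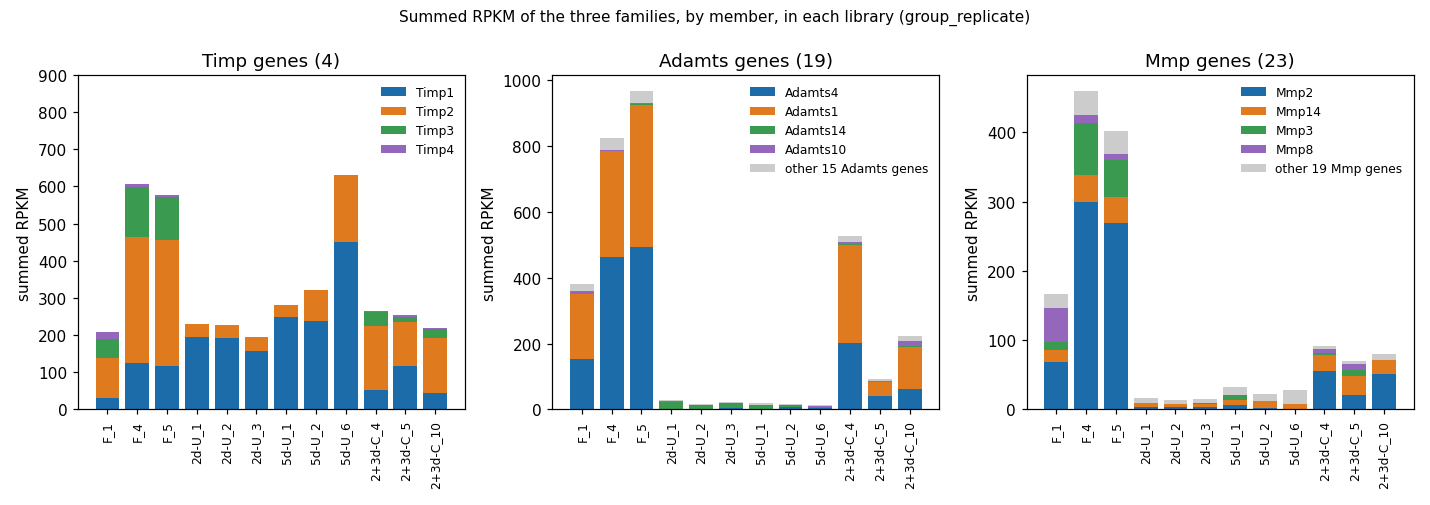
Stacked bars give the summed RPKM (linear axis from 0) of the Timp, Adamts and Mmp genes in each of the 12 libraries, split into the 4 genes of each family with the highest mean and the rest. Adamts1 and Adamts4 fill most of the F and 2+3d-C bars and are small in 2d-U and 5d-U. In the Timp panel Timp1 is a smaller part, and Timp2 and Timp3 a larger part, of the F and 2+3d-C bars than of the others.

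Against 5d-U, 9 of the 44 tested genes were called higher in 2+3d-C, beside 9.14% of all genes tested, and 5 were called lower, beside 13.4%. The 9 genes were 20.5% of the 44 and the 5 were 11.4%. Those higher were Timp3 and Timp4, Mmp2, Mmp14 and Mmp19, and Adamts1, Adamts4, Adamts8 and Adamts9. Those lower were Timp1, Mmp10, Mmp16, Mmp23 and Adamts6. The median log2 fold change was -0.56 over the 44 genes and -1.05 over all genes tested. With the genes that had no read in one group set to a limit, and 1 gene without a usable limit left out, the median was -0.17. When the 4 libraries with the most reads on silent families were removed, 5d-U kept 1 library, whose spread was taken to be that of the other groups. In that fit 4 of the 14 calls stayed, namely Adamts1, Mmp2, Mmp23 and Adamts6.

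Against 2d-U, 16 genes were called higher in 2+3d-C and 3 lower, which is 36.4% and 6.82% of the 44, beside 16% and 8.63% of all genes. Those higher were Timp2, Timp3 and Timp4, Mmp2, Mmp8, Mmp14, Mmp17 and Mmp19, and Adamts1, Adamts3, Adamts4, Adamts5, Adamts8, Adamts9, Adamts10 and Adamts15. Adamts6, Adamts14 and Mmp23 were lower. The median over the 44 genes was 1.79, against 0 over all genes. With limits it was 2.26, but 12 genes with no read in 1 or both groups had no usable limit and were left out of that median. Scaling by library size without TMM moved the split of the members to 14 higher and 5 lower, and that of all 22635 genes to 2537 higher and 3139 lower. Both comparisons use the same 2+3d-C libraries and are not independent. Against F, 0 genes were called higher (beside 1.94%) and 5 lower (11.4%, beside 4.47%). Those lower were Adamts6, Mmp13, Mmp16, Mmp23 and Mmp25. Mmp16 and Mmp25 had no read in compressed cells, and F was at least 31.8-fold and 18.1-fold higher against 3 reads in each compressed library. The call of Mmp16 was lost without F replicate 4 or 5 or compressed replicate 5 (adjusted p = 0.0894, 0.0879 and 0.0565), and that of Mmp25 without F replicate 4 or 5 or any compressed library (0.0689 to 0.128). None of the 44 was higher at an unadjusted p under 0.05 either. DESeq2 also called 0 higher, while it called 16 lower, beside 3296 of all 22635 genes. The count of lower genes depended on single F libraries, as did that over all genes tested. It was 17 of 45 without F replicate 1, beside 8878 of 27750. Without F replicate 4 it was 2, beside 222 of 23830, and without F replicate 5 it was 2, beside 265 of 22743. It was also 2 without 2+3d-C replicate 5, beside 490 of 27911.

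Between F and 2d-U, before any compression, 29 genes were lower in 2d-U and 1, Adamts14, was higher, which is 65.9% and 2.27% of the 44, beside 33.3% and 10.6% of all genes tested. The median over the members was -6.99, or -4 with limits, against -1.63 over all genes. From day 2 to day 5 without compression, 3 genes were called higher (6.82%, beside 1.87%), namely Adamts9, Adamts15 and Mmp19 (adjusted p = 0.0276, 0.0304 and 0.037 by edgeR), and 0 lower (beside 0.243%). In this direction 1 gene was lower at an unadjusted p under 0.05. DESeq2 called 1 lower and 13 higher, beside 394 and 2414 of all 22635 genes. No call of these 3 was kept without the 4 libraries with the most silent-family reads. The count of higher genes was 1 or 2 without 2d-U replicate 1, 2 or 3, without F replicate 4 or 5 or without 5d-U replicate 6, and 0 without F replicate 1. It was 5 to 7 without 5d-U replicate 2 or any one of the compressed libraries. Over all genes tested the count was 142 to 235 in the first of these fits, 193 without F replicate 1 and 720 to 1239 in the last.

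**Figure D2:**
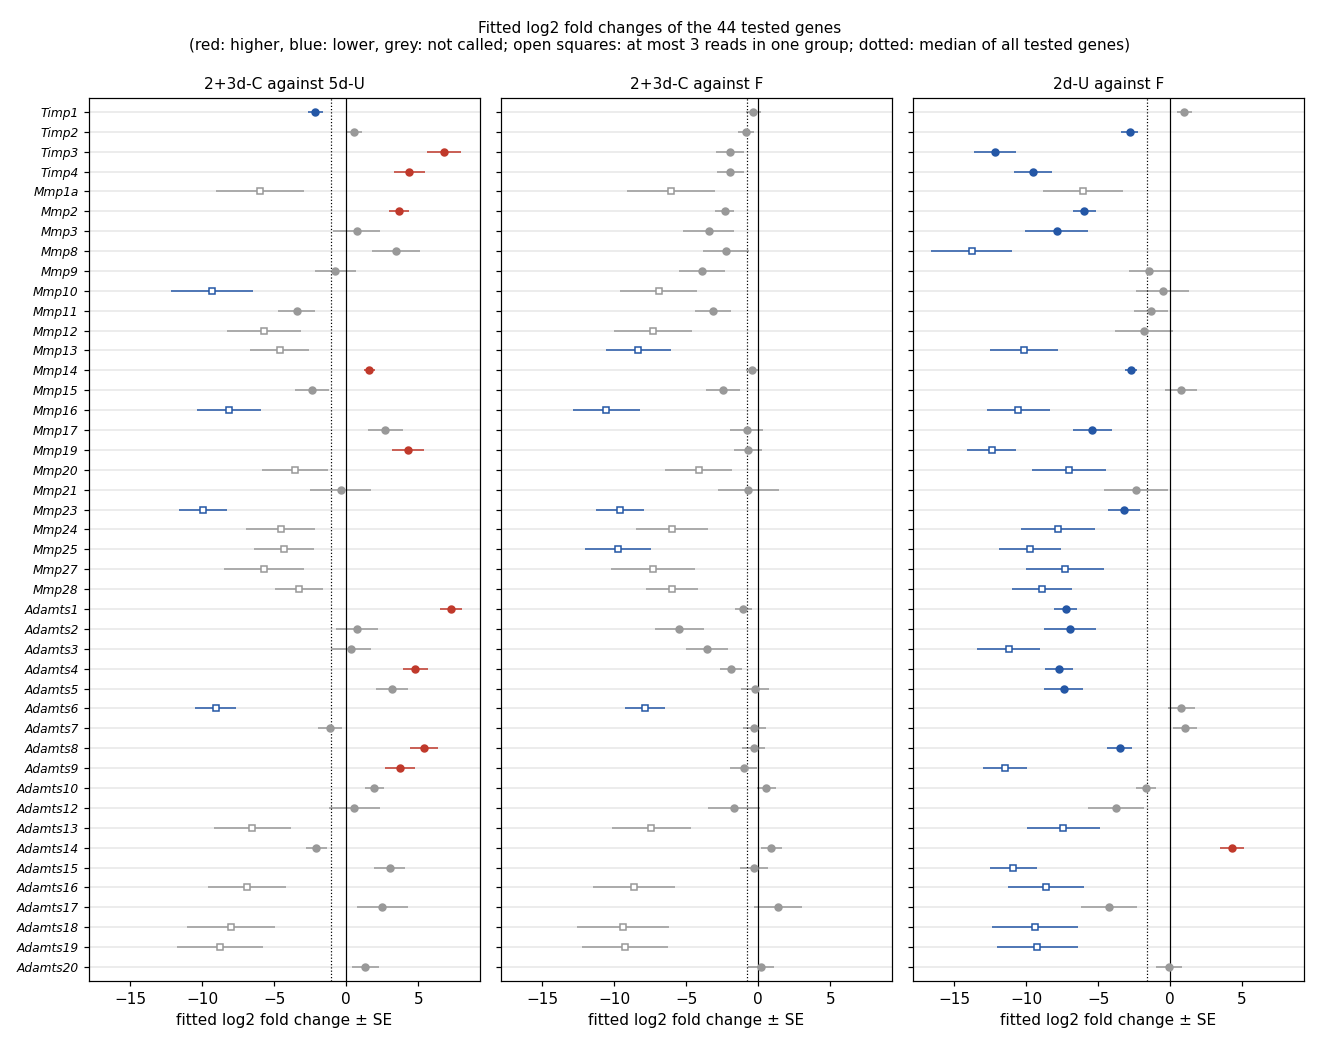
Points are fitted log2 fold changes with SE bars for the 44 tested genes in 3 comparisons, in red where called higher, blue where called lower and grey otherwise, with the median of all tested genes dotted (-1.05, -0.76 and -1.63). Open squares mark genes with at most 3 reads in one of the groups, whose fitted value is no measure of size. The panel of 2+3d-C against F holds no red point, and that of 2d-U against F holds Adamts14 as its only one.

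Timp1, a secreted inhibitor with growth factor-like activity, was at 249, 239 and 451 RPKM in 5d-U cells and 194, 191 and 156 in 2d-U cells. It was at 52.5, 118 and 43.6 RPKM in compressed cells and 32.2, 125 and 116 in F cells. All 5d-U libraries lay above all others, and the 2+3d-C and F values overlapped. Timp1 was lower in compressed cells than in 5d-U (-2.14 ± 0.543, adjusted p = 0.0117 by edgeR). The difference to 2d-U was not called (-1.34 ± 0.53, adjusted p = 0.0778), nor was that between 2d-U and F (0.98 ± 0.525, adjusted p = 0.133).

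Timp2, which inhibits MMPs and is also needed to activate the MMP2 precursor on the cell surface, was at 171, 118 and 149 RPKM in compressed cells and 105, 338 and 340 in F cells. It was even across 2d-U at 36.7, 37 and 37.8 RPKM, and spread widely in 5d-U at 32.6, 82.5 and 179. The 2+3d-C libraries overlapped those of 5d-U and lay above those of 2d-U. Timp2 was lower in 2d-U than in F (-2.82 ± 0.588, adjusted p = 0.00298 by edgeR) and higher in compressed cells than in 2d-U (1.98 ± 0.569, adjusted p = 0.021). The second call was lost without 2d-U replicate 1, 2 or 3 (adjusted p = 0.0622, 0.0632 and 0.0604) and when libraries were scaled by size alone (1.41, adjusted p = 0.0633). Against 5d-U the difference was 0.57 ± 0.551 (adjusted p = 0.424).

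Timp3, the inhibitor that stays bound to the matrix, was at 53.4, 135 and 116 RPKM in F cells and 0, 0 and 0.0626 in 2d-U cells. It was at 0.538, 0.0728 and 0.108 RPKM in 5d-U cells and 39.7, 14.1 and 24.9 in compressed cells. Every 2+3d-C library was above every uncompressed culture and below every F library. The mean in 2+3d-C was 110-fold that in 5d-U (6.77 ± 1.18, adjusted p = 0.00115 by edgeR), and the mean in F was 4850-fold that in 2d-U (2d-U minus F -12.14 ± 1.47, adjusted p = 8.22e-05). Between 2+3d-C and F the difference was not called (-1.96 ± 0.945, adjusted p = 0.145). The gene (chr10:86300372-86349506, + strand) lies within Syn3, a synapsin gene on the other strand that shares 21.3% of its exon bases, and counting ignored strand. Syn3 itself was at 0.0137, 0 and 0 RPKM in compressed cells and at most 0.351 in F cells.

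Timp4, the fourth inhibitor, was at 18.6, 7.64 and 4.93 RPKM in F cells, 0, 0 and 0.0376 in 2d-U cells, 0.191, 0.0296 and 0.174 in 5d-U cells, and 1.85, 3.69 and 2.7 in compressed cells. The order of the groups was that of Timp3, with no overlap between 2+3d-C and any other group. Its mean in 2+3d-C was 20.9-fold that in 5d-U (4.38 ± 1.05, adjusted p = 0.00841 by edgeR), and it was lower in 2d-U than in F (-9.54 ± 1.33, adjusted p = 0.000222). This gene (chr6:115241892-115252205, - strand) lies within Syn2, which shares 1.53% of its exon bases and was at 0.544, 0.893 and 1.97 RPKM in compressed cells. The endothelial sum given above was likewise between F and the uncompressed cultures in every compressed library. Of its 8 markers, 5 were called higher against 5d-U, beside 9.14% of all genes tested. Its part in these levels was not tested.

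**Figure D3:**
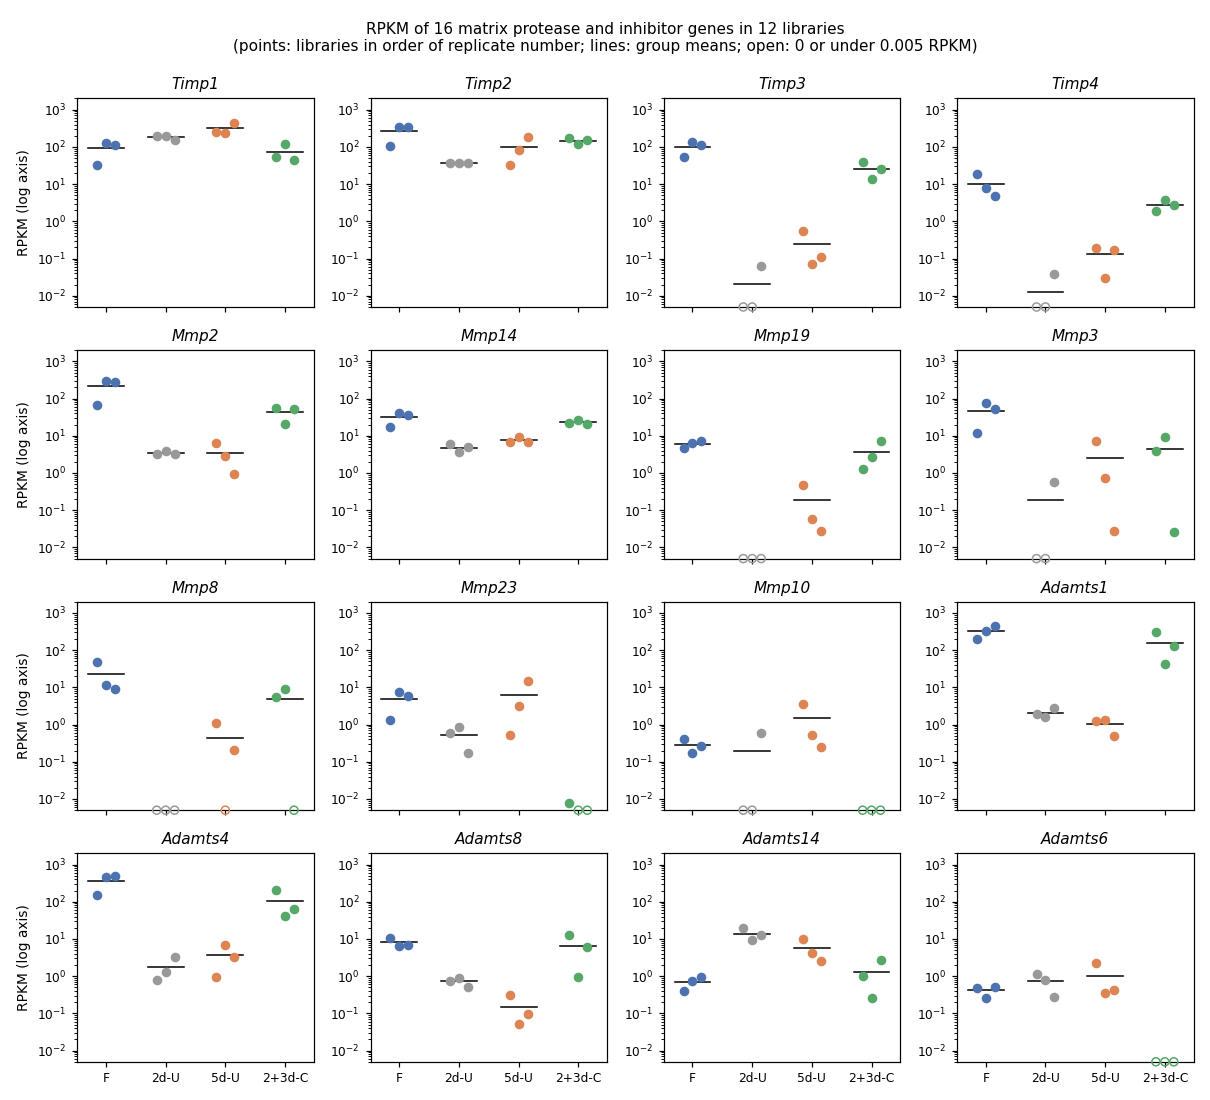
Each panel gives the RPKM (log axis) of 1 gene in the 12 libraries, with the libraries of a group side by side in the order of replicate number, a line at the group mean, and open points for values of 0 or under 0.005 RPKM. Timp3, Timp4, Mmp2, Mmp19, Adamts1 and Adamts4 are high in F and 2+3d-C and low in 2d-U and 5d-U, Timp1 and Adamts14 run the other way, and Mmp23, Mmp10 and Adamts6 are at or near 0 in 2+3d-C.

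Of the proteases that cut aggrecan and versican, Adamts1 had the smallest adjusted p of the 46 genes. It was at 197, 321 and 432 RPKM in F cells, 1.9, 1.6 and 2.72 in 2d-U cells, 1.23, 1.32 and 0.507 in 5d-U cells and 299, 43.5 and 126 in compressed cells. Compressed cells overlapped F, and their values spread widely around a mean of 156 RPKM, 153-fold the mean of 5d-U. edgeR gave 7.25 ± 0.771 over 5d-U (adjusted p = 3.01e-05) and 6.23 ± 0.735 over 2d-U (adjusted p = 5.48e-05), while compressed and F cells differed by -1.03 ± 0.591 (adjusted p = 0.218). These first 2 calls, and that of 2d-U against F (-7.26 ± 0.77, adjusted p = 3.71e-05), stood with each library of the groups left out and in all 9 other settings.

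Adamts4, the second aggrecanase, was at 154, 462 and 493 RPKM in F cells, 0.794, 1.29 and 3.25 in 2d-U cells, 0.955, 6.84 and 3.19 in 5d-U cells and 201, 40.6 and 62.8 in compressed cells. As for Adamts1, 2+3d-C replicate 4 was the highest of its group and no compressed library overlapped the uncompressed cultures. The mean was 27.7-fold that of 5d-U (4.79 ± 0.875, adjusted p = 0.00153 by edgeR), and 2d-U was lower than F (-7.71 ± 1, adjusted p = 0.000133). Adamts5, which lies close to Adamts1 on chromosome 16 and cuts the same substrates, stayed near 1 to 4 RPKM where it was present. It was at 1.18, 3.05 and 2.96 RPKM in F cells, 0.0368, 0 and 0.00205 in 2d-U cells, 0.518, 0.0743 and 0.0996 in 5d-U cells and 1.29, 1.38 and 3.54 in compressed cells. The last group lay above both uncompressed cultures. It was called against 2d-U (7.18 ± 1.33, adjusted p = 0.00149) and missed the threshold against 5d-U (3.16 ± 1.09, adjusted p = 0.0502).

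Adamts8 and Adamts15 lie close together on chromosome 9 and were present at lower levels. Adamts8 was at 10.9, 6.47 and 6.92 RPKM in F cells, 0.742, 0.917 and 0.504 in 2d-U cells, 0.31, 0.0529 and 0.0953 in 5d-U cells and 12.4, 0.942 and 6.17 in compressed cells. The 5d-U libraries were the lowest, and 2+3d-C replicate 5 was only just above 2d-U. The gene was higher in compressed cells than in 5d-U (5.41 ± 0.954, adjusted p = 0.00123 by edgeR) and than in 2d-U (3.18 ± 0.851, adjusted p = 0.0146), and the second call was lost without 2+3d-C replicate 4 (2.3, adjusted p = 0.0673) or 2d-U replicate 3 (2.97, adjusted p = 0.0529). Adamts15 stayed below 1 RPKM in every group mean, with 0.492, 0.583 and 0.701 RPKM in compressed cells, no read in any 2d-U library and 0.1, 0.00673 and 0.113 in 5d-U cells. Against a floor of 3 reads in each 2d-U library it was at least 76.5-fold higher in 2+3d-C.

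Adamts9, a versican-cutting protease also known for keeping cilia and the endoplasmic reticulum in order, was at 2.34, 3.91 and 5.93 RPKM in F cells and 1.76, 0.65 and 3.6 in compressed cells. It was at 0, 0.00521 and 0 RPKM in 2d-U cells, a total of 2 reads, and at 0.334, 0.0139 and 0.101 in 5d-U cells. The groups kept this order without overlap between 2+3d-C and the cultures. Its reads per library size in 2+3d-C were 1980 times those in 2d-U, with an exact 95% counting interval of 548 to 16400, which covers counting error only. Against 5d-U it was higher (3.74 ± 1.03, adjusted p = 0.0181 by edgeR), a call lost without 5d-U replicate 6 (3.53, adjusted p = 0.0637). Genes on the other strand share 12% of its exon bases, and A730049H05Rik among them was at 6.12, 16.1 and 5.4 RPKM in compressed cells, 0.0464, 0.00933 and 0 in 5d-U cells and 0 in each 2d-U library. Its part in the level of Adamts9 was not tested. Adamts20, another member of this branch, was near 1 RPKM and not called in any comparison, with 1.96, 1.05 and 0.0559 RPKM in compressed cells and 0.549, 0.314 and 0.353 in 5d-U cells.

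The procollagen-trimming ADAMTS genes did not move together. Adamts2 was at 2.29, 14.4 and 12 RPKM in F cells and 0, 0 and 0.225 in 2d-U cells, with 0.195, 0.0822 and 0.105 in 5d-U cells and 0.0783, 0 and 0.558 in compressed cells. Only F libraries exceeded 1 RPKM. Adamts2 was lower in 2d-U than in F (-6.97 ± 1.82, adjusted p = 0.0103 by edgeR), and the difference between 2+3d-C and F was not called (-5.47 ± 1.7, adjusted p = 0.0637). Adamts3 was at 0.972, 1.84 and 2.41 RPKM in F cells, at 0 in every 2d-U library, at 0.2, 0.0385 and 0.117 in 5d-U cells and at 0.0173, 0 and 0.421 in compressed cells. Against 3 reads in each 2d-U library it was at least 118-fold higher in F. The call of 2+3d-C over 2d-U rested on 2+3d-C replicate 10, without which the adjusted p was 0.0786.

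Adamts14, the third procollagen N-proteinase, ran in the opposite direction. It was at 19.5, 9.38 and 12.9 RPKM in 2d-U cells, 9.95, 4.27 and 2.5 in 5d-U cells, 0.408, 0.737 and 0.962 in F cells and 0.981, 0.256 and 2.73 in compressed cells. All 2d-U libraries stood above the F and 2+3d-C libraries. The mean in 2d-U was 19.8-fold that in F (4.3 ± 0.825, adjusted p = 0.00182 by edgeR) and 10.5-fold that in 2+3d-C (2+3d-C minus 2d-U -3.38 ± 0.791, adjusted p = 0.00679). Its difference between 2+3d-C and 5d-U missed the threshold (-2.07 ± 0.75, adjusted p = 0.0599).

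Adamts6, whose protease acts in heart and limb development, was at 0.496, 0.266 and 0.525 RPKM in F cells, 1.16, 0.784 and 0.27 in 2d-U cells and 2.25, 0.344 and 0.42 in 5d-U cells. In 2+3d-C it was at 0.0024, 0 and 0 RPKM, a single read in all. No library of another group came near these values. The reads per library size in 5d-U were 634 times those in 2+3d-C (exact 95% counting interval 113 to 25100), and edgeR called it lower in compressed cells than in 5d-U (adjusted p = 0.000633), 2d-U (adjusted p = 0.000683) and F (adjusted p = 0.00841). Each of these calls stood with each library of the groups left out.

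Adamts10, which acts on fibrillin microfibrils, was at 8.32, 4.23 and 4.67 RPKM in F cells, 2.29, 1.57 and 1.53 in 2d-U cells, 1.86, 1.46 and 3.33 in 5d-U cells and 6.69, 1.61 and 17.2 in compressed cells. The compressed libraries spread from among the uncompressed cultures to above F. It was called higher in compressed cells than in 2d-U (2.24 ± 0.682, adjusted p = 0.0274 by edgeR), which was lost without 2+3d-C replicate 10 (1.21, adjusted p = 0.2) and without 2d-U replicate 1, 2 or 3 (adjusted p = 0.0514, 0.0855 and 0.0864). Adamts7 and Adamts12, which cut cartilage oligomeric matrix protein, stayed under a mean of 1 RPKM in each group and were not called.

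Among the gelatinases, Mmp2 followed Timp3 while Mmp9 did not. Mmp2, which cuts collagen IV and denatured collagen, was at 68.7, 299 and 270 RPKM in F cells, 3.16, 3.85 and 3.22 in 2d-U cells, 6.42, 2.78 and 0.942 in 5d-U cells and 56.1, 20.6 and 50.9 in compressed cells. Compressed cells lay between F and the uncompressed cultures, with no overlap on either side. The mean in 2+3d-C was 12.6-fold that in 5d-U (3.65 ± 0.709, adjusted p = 0.00234 by edgeR), and 2d-U was lower than F (-5.97 ± 0.791, adjusted p = 0.000153). The difference between 2+3d-C and F was just over the threshold (-2.33 ± 0.669, adjusted p = 0.0517). Mmp9, a gelatinase also stored by neutrophils, was at 10.8, 5.48 and 6.77 RPKM in F cells, 4.28, 0.974 and 3.22 in 2d-U cells, 2.52, 0.069 and 0.0138 in 5d-U cells and 0.938, 0.614 and 0 in compressed cells, and was called in no comparison.

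The 6 membrane-bound MMPs differed in level and direction. Mmp14, the transmembrane collagenase that activates the MMP2 precursor, was at 17.2, 39.7 and 37 RPKM in F cells, 5.9, 3.59 and 4.86 in 2d-U cells, 6.82, 9.17 and 6.75 in 5d-U cells and 22.1, 27.3 and 20.3 in compressed cells. Its compressed libraries were close to each other, overlapped F and lay above both cultures. Mmp14 was higher in compressed cells than in 5d-U (1.61 ± 0.408, adjusted p = 0.0114 by edgeR, or 0.051 without 5d-U replicate 6) and than in 2d-U (2.28 ± 0.417, adjusted p = 0.00137). Against F the difference was -0.44 ± 0.399 (adjusted p = 0.463). Mmp14, Mmp2 and Timp2, whose proteins form the complex that activates MMP2, were thus all lower in 2d-U than in F. All were higher in compressed cells than in 2d-U, Timp2 with the limits given above. In a fit with the replicate number as a block, Mmp2 (0.95, adjusted p = 0.836 by edgeR), Mmp14 (1.15, 0.715) and Timp2 (0.55) were not called against 2d-U. That fit also lost the calls of Mmp14 (-1.8, adjusted p = 0.182) and Timp2 (-1.81, 0.16) in 2d-U against F, but not that of Mmp2.

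Mmp17, which is anchored to the membrane by a lipid, was at 0.421, 3.22 and 2.05 RPKM in F cells, 0.0571, 0.0769 and 0 in 2d-U cells, 0.242, 0.0896 and 0.162 in 5d-U cells and 1.18, 0.383 and 1.69 in compressed cells. It was higher in compressed cells than in 2d-U (4.61 ± 1.3, adjusted p = 0.0189 by edgeR) and was not called against 5d-U (2.72 ± 1.19, adjusted p = 0.0996). Mmp15 was at 0.313, 2.01 and 1.11 RPKM in 5d-U cells and 0.57, 0 and 0.0508 in compressed cells and was not called. Mmp16, Mmp24 and Mmp25 reached a mean of 1 RPKM in no group. No 2+3d-C library had a read on Mmp16 or Mmp25, and Mmp24 had 1 read in them. Mmp16 was called lower in compressed cells than in 5d-U, where its values were 0.3, 0.0201 and 0.0733 RPKM. Against 3 reads in each library, 5d-U was at least 6.14-fold higher, and the call was lost without 2+3d-C replicate 4 (adjusted p = 0.0736).

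Mmp19, which cuts basement membrane proteins, was at 4.59, 6.29 and 7 RPKM in F cells, at 0 in each 2d-U library, at 0.466, 0.0592 and 0.0277 in 5d-U cells and at 1.25, 2.63 and 7.02 in compressed cells. The compressed libraries overlapped F alone. Its mean in 2+3d-C was 19.7-fold that of 5d-U (4.29 ± 1.11, adjusted p = 0.0156 by edgeR, or 0.0506 without 5d-U replicate 6), and at least 160-fold higher than 3 reads in each 2d-U library. Genes on the other strand, Gm47093 and Tmem198b, share 28.3% of its exon bases, and Tmem198b was at 1.29, 0.718 and 0.0136 RPKM in compressed cells and 1.39, 1.64 and 1.63 in 2d-U cells.

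Mmp23, a membrane-released protease without the usual propeptide switch, showed the reverse. It was at 0.537, 3.25 and 14.9 RPKM in 5d-U cells, 0.606, 0.837 and 0.17 in 2d-U cells, 1.3, 7.57 and 5.98 in F cells and 0.00801, 0 and 0 in compressed cells. All compressed libraries lay below every other library, with 1 read among them. Reads per library size were 1110 times higher in 5d-U (exact 95% counting interval 199 to 43900) and 1040 times higher in F (186 to 41100). edgeR called it lower in compressed cells than in 5d-U (adjusted p = 0.000919), 2d-U (adjusted p = 0.00853) and F (adjusted p = 0.00695), with each library of the groups left out as well. Mmp23 was also lower in 2d-U than in F (-3.21 ± 1.13, adjusted p = 0.0368 by edgeR), a call lost without F replicate 4 or 5 or any one 2d-U library (0.0637 to 0.102). Mmp11, a stromelysin activated inside the cell, was at 0.78, 4.18 and 3.45 RPKM in 5d-U cells and 0.351, 0.435 and 0 in compressed cells, a difference that was not called (-3.44 ± 1.28, adjusted p = 0.0643).

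The collagenases, stromelysins and their relatives form a cluster of 10 genes on chromosome 9 (mm10, 7272514 to 7699585), with Mmp13, Mmp12, Mmp1b, Mmp3, Mmp1a, Mmp10, Mmp8, Mmp27, Mmp20 and Mmp7. Promoter windows of RefSeq (build GRCm38.p6, from 250 bases before to 50 after a gene's start) were found for 32 of the 46 members, including all 10 of the cluster. They were searched for TGAGTCA, the motif bound by the AP-1 factors Fos and Jun, on both strands (the other strand reads TGACTCA). It was in the windows of 7 of the 10 cluster genes and of 0 of the 22 other members, beside 5.95% of 27025 genes (5.2% of 32851 windows). CAGCTG, an E-box bound by myogenic factors, was in the windows of 7 of the 32 members (Adamts2, Adamts9, Adamts12, Adamts17, Mmp25, Timp2 and Timp4), which is 21.9% beside 18.3% of all genes. The 50 bases around the AP-1 match of each of these 7 cluster genes are shown. They are printed 5′ to 3′ on the gene's strand with the match in capitals.
Mmp13, chr9:7272457-7272506, + strand: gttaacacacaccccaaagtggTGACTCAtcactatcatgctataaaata
Mmp12, chr9:7347308-7347357, + strand: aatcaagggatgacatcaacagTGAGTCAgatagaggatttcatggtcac
Mmp1b, chr9:7388092-7388141, - strand: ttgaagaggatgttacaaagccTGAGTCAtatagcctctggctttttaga
Mmp3, chr9:7445754-7445803, + strand: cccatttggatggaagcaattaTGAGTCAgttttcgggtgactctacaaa
Mmp1a, chr9:7464046-7464095, + strand: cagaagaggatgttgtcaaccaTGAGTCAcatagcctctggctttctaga
Mmp10, chr9:7502257-7502306, + strand: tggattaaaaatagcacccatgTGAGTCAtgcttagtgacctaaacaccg
Mmp7, chr9:7692005-7692054, + strand: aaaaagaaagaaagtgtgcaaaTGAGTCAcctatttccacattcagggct
All 7 matches start between 35 (Mmp13) and 93 (Mmp1b) bases before the start site, and Mmp8, Mmp20 and Mmp27 have none in their windows. A match is a description of these letters and not a measured binding site.

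Levels of the genes with these letters differed. Mmp3, a stromelysin that cuts proteoglycans and activates other MMPs, was at 11.6, 74.9 and 53.4 RPKM in F cells, 0, 0 and 0.578 in 2d-U cells, 7, 0.736 and 0.0271 in 5d-U cells and 3.9, 9.05 and 0.0254 in compressed cells. Both 5-day groups held 1 library near 0.03 RPKM and overlapped. It was lower in 2d-U than in F (-7.87 ± 2.18, adjusted p = 0.014 by edgeR), and 2+3d-C differed from 5d-U by 0.72 ± 1.63 (adjusted p = 0.747). Mmp10, the second stromelysin, was at 3.63, 0.527 and 0.255 RPKM in 5d-U cells, 0, 0 and 0.579 in 2d-U cells, 0.41, 0.167 and 0.263 in F cells and 0 in each 2+3d-C library. Against 3 reads in each compressed library it was at least 13.7-fold higher in 5d-U (adjusted p = 0.034), and the call was lost without 5d-U replicate 1 (adjusted p = 0.0929) or without any 2+3d-C library (0.0575 to 0.0998).

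Mmp13, a collagenase of fibrillar collagens, was at 0, 2.73 and 2.27 RPKM in F cells, at 0 in each 2d-U library, at 0.146, 0.13 and 0.11 in 5d-U cells and at 0.00701, 0 and 0 in compressed cells. Its level in F came from replicates 4 and 5 alone. Its fall from F to 2d-U was called (adjusted p = 0.00699 by edgeR), as was that from F to 2+3d-C (adjusted p = 0.047), the latter lost without F replicate 4 (adjusted p = 0.146) or 5 (0.125) or without any 2+3d-C library (0.0845 to 0.115). Mmp12, Mmp1a, Mmp1b and Mmp7 reached a mean of 1 RPKM in no group. The highest of the 4 was Mmp12, a macrophage elastase, at 0.632, 0.388 and 0.486 RPKM in F cells.

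Mmp8, the collagenase of neutrophil granules and a cluster gene without the motif, was at 48.8, 11.3 and 8.9 RPKM in F cells, 0 in each 2d-U library, 1.11, 0 and 0.201 in 5d-U cells and 5.5, 9.11 and 0 in compressed cells. Compressed replicates 4 and 5 held it and replicate 10 had no read. S100a8 and S100a9, which neutrophils express at very high levels, were highest in the same library as Mmp8 in F cells, 5d-U and 2+3d-C. S100a8 was at 1220, 57.2 and 124 RPKM in F cells, 32.7, 0 and 0 in 5d-U cells and 28.1, 54.5 and 0 in compressed cells, and S100a9 at 1590, 155 and 240, at 54.4, 0 and 0.0936, and at 47.9, 119 and 0. Ptprc, the pan-leukocyte marker, was at 7.64, 1.53 and 1.69 RPKM in F cells and at 0 in each 2+3d-C library. Over all 12 myeloid and other immune markers the sum was 2760, 644 and 658 CPM in F, 0.82 to 4.54 in 2d-U cells, 171, 2.93 and 8.5 in 5d-U cells and 79.2, 177 and 7.54 in compressed cells. Their part in the level of Mmp8 was not tested. Mmp8 was lower in 2d-U than in F, at least 696-fold against 3 reads in each 2d-U library (adjusted p = 0.00355), higher in compressed cells than in 2d-U (at least 147-fold, adjusted p = 0.00893) and not called between 2+3d-C and 5d-U (3.47 ± 1.68, adjusted p = 0.126).

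In 19 of the 46 genes no group mean reached 1 RPKM. They are Adamts7, Adamts12, Adamts13, Adamts15 to Adamts19, Mmp1a, Mmp1b, Mmp7, Mmp12, Mmp16, Mmp20, Mmp21, Mmp24, Mmp25, Mmp27 and Mmp28. Of these, 11 were nevertheless called lower in 2d-U than in F. For 7 of the 11 (Adamts13, Adamts16, Adamts18, Adamts19, Mmp20, Mmp24 and Mmp27) F replicate 1 and all 2d-U libraries had no read. In F replicate 4 these genes held 1.27 to 2.66 times, and in F replicate 5 1.02 to 2.6 times, the reads expected on their exons from the density over silent families. Each of these 7 calls was lost without F replicate 4, without F replicate 5 or without any 2d-U library. In the same comparison 257 of the 515 silent-family genes tested were called lower in 2d-U as well. The other 4, Adamts15, Mmp16, Mmp25 and Mmp28, had reads in all 3 F libraries and stayed called with each library of the groups left out. Mmp16, Mmp25 and Mmp28 were not called with the replicate block (adjusted p = 0.157, 0.17 and 0.117 by edgeR), while Adamts15 was. Nor did these 3 keep their calls without the 4 libraries with most silent-family reads, which left 1 F library. Their fitted differences there were -7.02, -7.95 and -8.63.

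**Figure D4:**
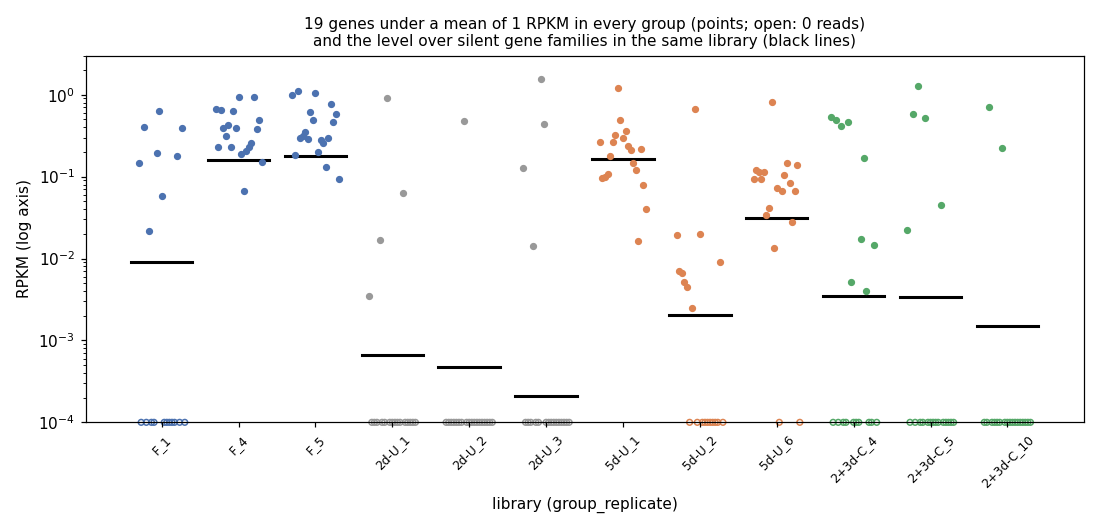
Points are the RPKM (log axis) of the 19 genes under a mean of 1 RPKM in every group, by library, with open points at the bottom for 0 reads, and black lines are the level over silent gene families in the same library. In F replicates 4 and 5 and 5d-U replicate 1 the lines stand at 0.161, 0.179 and 0.165 with points on both sides, while many of the genes have no read in the 2d-U and 2+3d-C libraries.

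Genes that act with these proteases were examined in 6 lists. Their counts stand beside these shares of all genes tested. Against 5d-U 9.14% were called higher in 2+3d-C and 13.4% lower. Against 2d-U it was 16% and 8.63%, and against F 1.94% and 4.47%. For 2d-U against F 10.6% were higher and 33.3% lower. Of 8 genes for plasminogen, its activators and plasmin inhibitors (7 tested), 2 were higher in compressed cells than in 5d-U and 0 lower, with 1 lower at an unadjusted p under 0.05 and 0 lower by DESeq2. Plat, which encodes the tissue plasminogen activator, was at 156, 205 and 68.3 RPKM in compressed cells, 82.1, 101 and 77.7 in F cells, 0, 0.427 and 0 in 2d-U cells and 0.493, 0.274 and 0.47 in 5d-U cells (8.44 against 5d-U, adjusted p = 0.00141 by edgeR). Plaur, the receptor of urokinase, was at 419, 1670 and 251 RPKM in compressed cells and 76.1, 57.7 and 113 in 5d-U cells (3.24, adjusted p = 0.00267). Compared with 2d-U, 6 of 7 were higher, and 6 of 7 were lower in 2d-U than in F.

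Of 9 other regulators and activators, 3 were higher in compressed cells than in 5d-U and 1 lower. Furin and Pcsk5, proprotein convertases that activate several of these proteases, were among the 3. Furin was at 53.9, 9.14 and 56.9 RPKM in compressed cells, 1.77, 2.39 and 2.34 in 5d-U cells, 16.5, 13.9 and 16.3 in 2d-U cells and 12.7, 10.6 and 21.5 in F cells (4.2 against 5d-U, adjusted p = 0.000302 by edgeR), and the first group overlapped both F and 2d-U. Pcsk6, a related convertase, had no read in 2+3d-C and was at 0.51, 1.12 and 0.245 RPKM in 5d-U cells and 1.31, 20.1 and 28.1 in F cells (adjusted p = 0.00154 between the former and compressed cells, and 0.000986 for F).

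None of 10 cell-surface ADAM proteases was called between 2+3d-C and 5d-U by edgeR. At an unadjusted p under 0.05, 0 were higher and 1 lower, and DESeq2 called the same numbers. Among 7 ADAMTS-like proteins, which bind the matrix without a protease domain, 2 were higher, Adamtsl4 and Thsd4, and Adamtsl3 was lower. Adamtsl4 was at 11.5, 2.22 and 29.1 RPKM in compressed cells, 2.4, 4.91 and 6.49 in F cells, 0 in each 2d-U library and 0.32, 0.0582 and 0.151 in 5d-U cells (6.34 against 5d-U, adjusted p = 0.00125 by edgeR). Adamtsl3 had no read in 2+3d-C and was at 0.246, 0.0315 and 0.221 RPKM in 5d-U cells (adjusted p = 0.0143).

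Of 14 procollagen-processing and other secreted matrix enzymes, 5 were higher in compressed cells than in 5d-U and 2 lower. The sulfatases that edit heparan sulfate, Sulf1 and Sulf2, were called in opposite directions. Sulf1 was at 58.3, 9.46 and 37.7 RPKM in compressed cells and 0.403, 0.652 and 0.463 in 5d-U cells (6.12, adjusted p = 0.000156 by edgeR), and Sulf2 was at 0.00958, 0 and 0.0233 in compressed cells and 2.25, 6.29 and 3.59 in 5d-U cells (adjusted p = 7.69e-05). Against F 0 of the 14 were called higher in 2+3d-C by edgeR, at an unadjusted p under 0.05 or by DESeq2, and 3 were lower.

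Among 13 proteoglycans and glycoproteins that these proteases cut, 3 were higher in compressed cells than in 5d-U, namely Dcn, Lum and Nid2, and 0 lower, with 1 lower at an unadjusted p under 0.05 and 0 by DESeq2. Acan and Vcan were picked after their values were seen, as the genes of the main substrates of Adamts1 and Adamts4. Acan, the aggrecan gene, was at 0.01, 0 and 0 RPKM in compressed cells and Vcan, the versican gene, at 0.714, 0.668 and 0.322, against 0.902, 0.463 and 0.689 in 5d-U cells. Both were thus under 1 RPKM in compressed cells that held Adamts1 and Adamts4 at 40.6 to 299 RPKM. Dcn and Lum, small proteoglycans of collagen fibrils, are also fibroadipogenic markers. Dcn was at 276, 686 and 775 RPKM in F cells, 0.518, 0.121 and 1.89 in 2d-U cells, 6.88, 0.173 and 0.259 in 5d-U cells and 26.4, 75.2 and 31.9 in compressed cells, and every compressed library lay between F and the uncompressed cultures, as for Mmp2 and Timp3.

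The marker sums were set beside the members, and the shares of all genes tested given for the lists above apply to the marker counts too. Of the 10 fibroadipogenic markers, 6 were higher in compressed cells than in 5d-U and 9 were lower in 2d-U than in F. Pdgfra, which defines those cells, was at 2.13, 9.79 and 15.5 RPKM in F cells, 0 in each 2d-U library, 0.381, 0.0522 and 0.0829 in 5d-U cells and 0.849, 0.0241 and 0.00911 in compressed cells. Pecam1, the endothelial marker, was at 10.2, 2.27 and 5.04 RPKM in compressed cells and 0.592, 0.0952 and 0.141 in 5d-U cells. The sum of 5 tenocyte markers was 719 to 7820 CPM in F and 138 to 283 in compressed cells. It was 168 to 304 in 2d-U and 176 to 997 in 5d-U. These sums overlapped, but 3 of the 5 were called higher and 1 lower against 5d-U, and different genes carried them. Scx averaged 233 CPM in 2d-U and 468 in 5d-U but 7.36 in compressed cells. Fmod averaged 88.1 CPM in compressed cells and 0.498 in 5d-U, with no read in 2d-U. The sum of 8 smooth muscle and pericyte markers was 986, 796 and 1080 CPM in F, 67.2 to 89.9 in 2d-U cells, 63.2 to 742 in 5d-U cells and 439 to 800 in compressed cells. Notch3 alone averaged 304 CPM in compressed cells against 4.64 in 5d-U cells, and the paper stained for Notch3 in MuSCs of both groups. This sum therefore does not measure pericytes alone. Myh11 and Rgs5 averaged 53.4 and 35.9 CPM in compressed cells, against 1.02 and 3.16 in 5d-U cells. For 5 glial markers the sum was 195 to 271 CPM in F, 0.509 to 3.9 in 2d-U cells, 0.837 to 8.8 in 5d-U cells and 79.2 to 135 in compressed cells. The 4 chondrocyte markers summed to 191 to 641 CPM in F, 123 to 160 in 2d-U cells, 32.6 to 95.2 in 5d-U cells and 279 to 539 in compressed cells. Acan, Col2a1 and Comp averaged 0.025, 0.949 and 13.3 CPM in compressed cells and had no read in 2d-U. In these groups the sum thus rested on Sox9, the remaining marker. Muscle stem cell markers were at 16800 to 18100 CPM in 2+3d-C, against 3100 to 7290 in F cells, 2620 to 3090 in 2d-U cells and 2550 to 3830 in 5d-U cells, with 7 of 10 higher in compressed cells than in 5d-U. Of these markers Myod1 had the highest mean in compressed cells (5930 CPM), followed by Sdc4 (4840). Their means were 1750 and 150 CPM for 5d-U cells, and 906 and 1820 for F cells. Pax7 averaged 77.8 CPM and Calcr 50.8 in compressed cells, against 14.7 and 33.7 for F cells. The paper scored cells with MyoD protein as progenitors or as committed to differentiation. The stem cell sum thus does not measure stem cell identity alone. The share of each cell type in the levels of Timp3, Mmp2 and Adamts1 was not tested.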

How the data were processed

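The authors amplified cDNA with SMART-seq v4 and ran an nf-core pipeline against mm10. Per the file headers they counted reads on the exons of each GENCODE vM23 gene with featureCounts 1.6.4 without regard to strand. The deposited values are raw counts per gene and library, without normalization. Reads on exon bases shared by genes on opposite strands are then assigned to neither gene. A merged table of the same libraries was not used. Libraries held 12540745 to 62424851 reads on genes. 3 reads were taken as the floor of a library. Limits and counting intervals (95%, exact) cover counting error only, since reads amplified by PCR are not independent molecules.

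Tests used edgeR 4.0.16 under R 4.3.3 (filterByExpr by group, TMM, 1 quasi-likelihood fit over the 12 libraries, 5 contrasts, two-sided). Benjamini-Hochberg adjustment was over all 22635 genes tested. The procedure was tested on simulated data. RPKM used exon lengths from the files. The members and lists were chosen with earlier results of these data known. Values in every library are given for the Timp genes and for members that reach a mean of 1 RPKM in a group and are called at least once, and other members are given by their range. As silent families served the receptors of smell and taste (vomeronasal ones included), keratin-associated proteins and alpha-defensins. Alternatives were DESeq2 1.42.0, RLE factors, no TMM, other filters, the groups compared alone, a replicate block, subtraction of the reads expected from silent families, removal of the 4 libraries with most of them, and each library left out. Exon overlaps and promoter motifs were computed in Python.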

Additional observations from a re-analysis of the deposited data

How the results depend on the processing

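The number of members called was most stable for 2+3d-C against 2d-U (19, and 17 to 20 with each of the 12 libraries left out) and against 5d-U (14, and 11 to 16). It was 5 against F (2 to 17), 30 for 2d-U against F (22 to 33) and 3 for 5d-U against 2d-U (0 to 7). Without the 4 libraries with most silent-family reads, which leaves 1 F and 1 5d-U library, it was 4 against 5d-U, 0 against F, 11 for 2d-U against F and 0 for 5d-U against 2d-U. DESeq2 gave 16 against F and 14 for 5d-U against 2d-U, and no filter on low counts gave 15 and 14. With genes of at least 5 CPM alone, where 22 members were tested, 2 were called against F and 18 for 2d-U against F. For 5d-U against 2d-U, 0 were called with library size alone, with those 2 groups alone, or with silent-family reads subtracted. Library size alone in place of TMM moved the median log2 fold change of all genes from -1.05 to -1.21 against 5d-U, from -0.76 to -1.24 against F, and from 1.13 to 0.65 for 5d-U against 2d-U. The counts are of members alone, and those over all genes tested moved as well. Except where named, the cause of these shifts was not tested.

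The labels share some replicate numbers between groups, in at most 2 pairs a comparison, and do not say that these mark a batch. Deviations of same-numbered libraries from their group means correlated at -0.424 to 0.032. With the replicate block 6 members were called higher and 10 lower against 5d-U, in place of 9 and 5. Compressed and 5d-U libraries share no number. Of all 22635 genes tested, 728 were called higher and 3098 lower with the block, in place of 2068 and 3042. Their median log2 fold change moved from -1.05 to -1.91. Mmp2 (0.67, adjusted p = 0.723), Mmp14 (0.37, 0.871), Mmp19 (1.46, 0.656), Adamts9 (1.23, 0.593) and Mmp10 (-9.38, 0.0865) were then not called against 5d-U. Against 2d-U 12 members were called with the block (9 higher and 3 lower), beside 1090 higher and 836 lower of all genes. Against F 15 were called, all lower, beside 270 higher and 1690 lower of all genes. For 2d-U against F it was 14 (1 higher and 13 lower), beside 588 higher and 2151 lower. For 5d-U against 2d-U it was 9, all higher, beside 642 higher and 33 lower. In 2d-U against F the block turned the sign of Adamts13 (0.58), Mmp24, Mmp27 and Mmp20 (0.66), Adamts18 and Adamts19 (0.67), Mmp13 (0.05) and Adamts16 (0.61), all with an adjusted p of 1. The median log2 fold change of all genes tested turned as well, from -1.63 to 0.37. None of these members had a read in F replicate 1 or in any 2d-U library. Replicate 1 is the only number that F and 2d-U share, so the block fit cannot give their direction. No other alternative turned the sign of a called member.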
